A study of Mus musculus with 9 samples.

Results

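The genes described here are 53 genes of the DNA damage response and of DNA repair. They span checkpoint signalling, double-strand break repair, interstrand crosslink repair, mismatch repair and the excision pathways. They were listed by name, and the list was made with earlier results of these data known. Each of the 53 was found in the deposited table of 22526 genes through its gene identifier. Their mRNA was measured in oocytes of ICR mice, an outbred strain, at metaphase II, the stage at which the ovulated egg awaits fertilisation. The 9 libraries fall into an NMN supplementation group, an aged group and a young group, with 3 libraries each. NMN, nicotinamide mononucleotide, is a precursor of the coenzyme NAD. The series was made to study NMN and the quality of oocytes in maternal ageing. The labels give neither the ages of the mice, nor the dose of NMN, nor the age of the mice that received it. The number of oocytes in a library and the animals behind it are not stated either, and the p-values rest on differences among 3 libraries per group that may be technical in part.

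An oocyte forms before birth and then waits in meiotic prophase until ovulation, so its genome has to be kept intact for as long as it waits. In resting oocytes, breaks are sensed by the kinases ATM and ATR, which act through the checkpoint kinases CHK2 and CHK1, and CHK2 activates TAp63, the form of p63 that eliminates damaged oocytes. Breaks are repaired either by homologous recombination, which copies an intact template with the help of BRCA1 and BRCA2, or by end joining, which ligates the ends directly. A mature egg is transcriptionally silent, and the mRNA and protein it has stored serve the egg itself and the repair of sperm and egg DNA in the zygote.

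Each library held between 16.3 M and 19.3 M reads (M, mega), by the size of a single read in the deposited values. FPKM is the number of read fragments per kilobase of transcript and per M fragments, and 3 reads on a transcript of 2 kb amount to 0.0779 to 0.0921 FPKM. A list of 12 oocyte markers, such as Zp3 and Gdf9, added up to 11951 to 13687 FPKM in NMN, 13070 to 14296 FPKM in aged and 10094 to 12457 FPKM in young libraries. H1foo alone had 5063 to 8888 FPKM of it. Within the list, aged replicate 2 was the highest library for Zp1 (277 FPKM) and Zp2 (197 FPKM) and the lowest for Gdf9 (2127 FPKM). Zp3 had 166 to 326 FPKM in aged, 158 to 212 FPKM in NMN and 102 to 124 FPKM in young libraries. Aged replicate 2 stood apart from the other 8 libraries in markers of cumulus and granulosa cells, the somatic cells around an oocyte. The 12 such markers in the table summed to 22.8 FPKM in that library and to 3.19 to 7.21 FPKM in the others, and Ptx3, Inha, Fst and Tnfaip6 were listed at 0 in all 8 others. Cyp19a1 and Lhcgr, of the same list, went the other way. Cyp19a1 had 3.03 FPKM in aged replicate 2 and 3.05 to 6.205 FPKM in the others. Lhcgr was listed at 0 in aged replicate 2 and reached 0.405 FPKM in young replicate 2. Of the 4 markers of early embryonic transcription in the table, the sum was 159 FPKM in aged replicate 2 and 29.6 to 79.4 FPKM elsewhere. That sum is almost all Tcstv1, with 158 FPKM in aged replicate 2. Zscan4d, Zscan4c and Zfp352 had at most 0.108 FPKM in that library, and for Zscan4d it was the lowest of the 9. Blood cell markers summed to at most 2.51 FPKM and handling stress genes to 7.56 to 16.9 FPKM over the 9 libraries. Of the stress genes, Jun had 1.85 FPKM in aged replicate 2 and at most 0.0569 FPKM elsewhere, while the rest lay within the range of the other libraries. What part these differences play in the values of the repair genes was not tested.

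The repair genes covered a wide range of levels, which the plot of all 53 genes by role shows. Over the 9 libraries, 14 genes averaged at least 10 FPKM, 27 averaged 1 to under 10 FPKM and 12 averaged under 1 FPKM. The median of the 53 gene means was 3.95 FPKM, against 0.359 FPKM over all genes of the table. Chek1, Rad50, Msh6, Brca2, Trp53, Rnf168, Ung and Brip1 were the 8 most abundant, in that order. Chek1 stood apart from the rest, with a mean of 195 FPKM that placed it 209th among all genes, and it made up 23.6 to 31.8% of the summed FPKM of the 53 genes. The lowest Chek1 value, 139 FPKM, lay above the highest Rad50 value, 72.0 FPKM. Below Chek1, each pair of neighbours in the order overlapped in range over the 9 libraries, for example Msh6 at 40.2 to 51.6 FPKM and Brca2 at 35.1 to 43.8 FPKM.

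**Figure D1:**
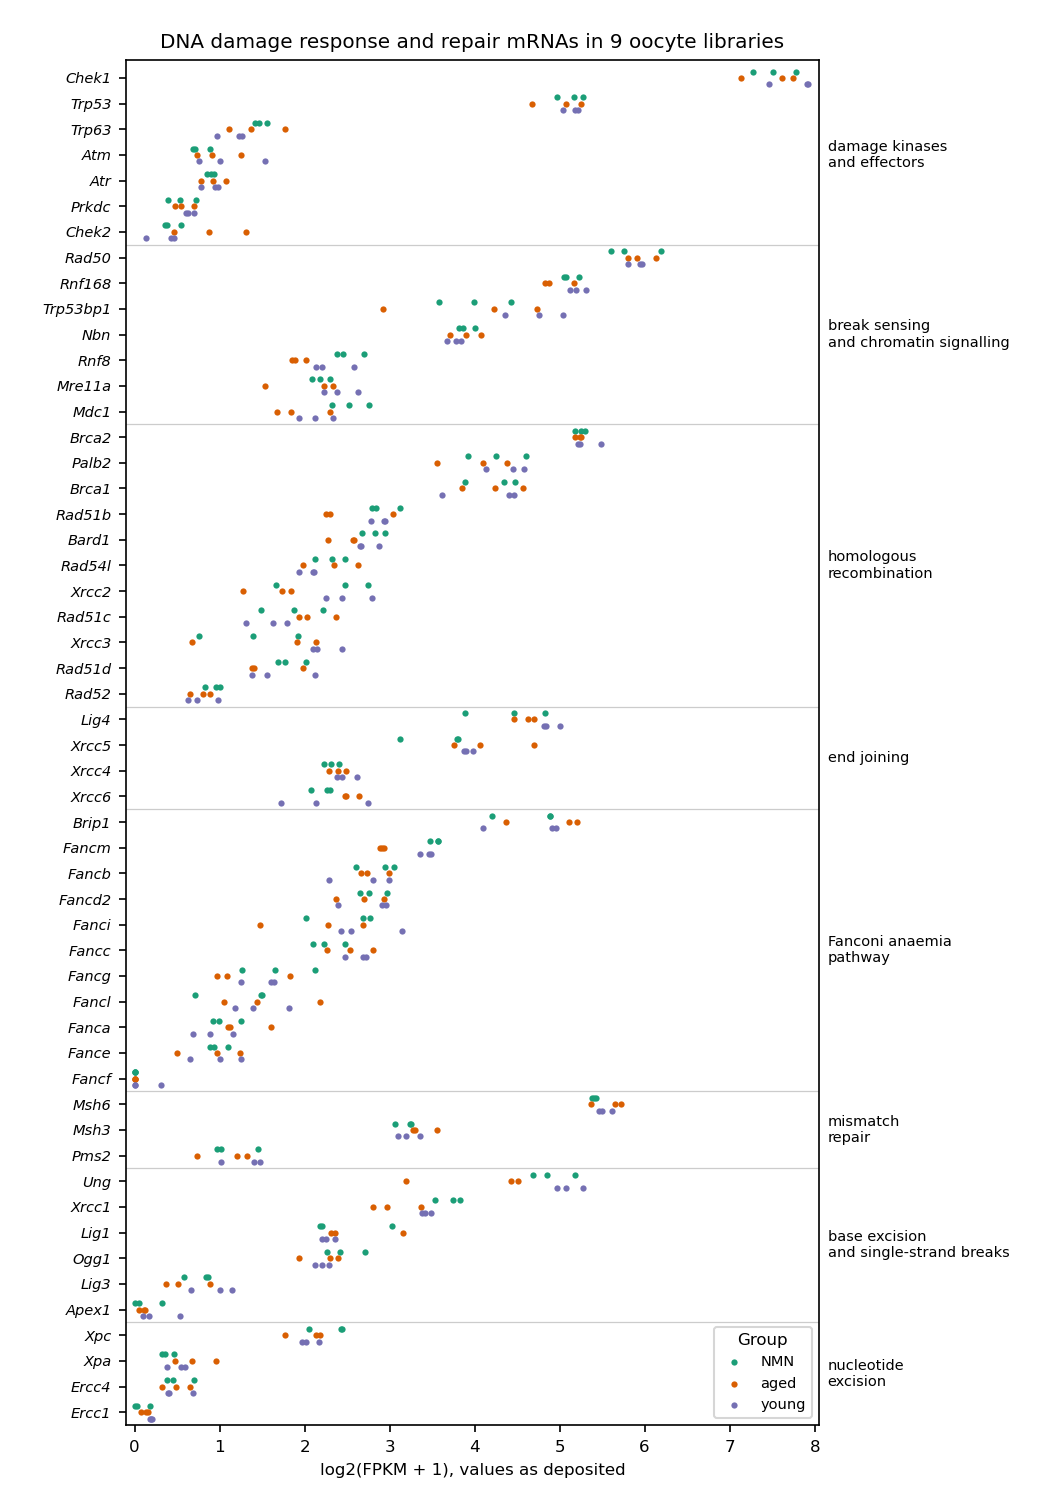
Level of each of the 53 DNA damage response and repair mRNAs in the 9 libraries, on the log2(FPKM + 1) scale with values as deposited, grouped by role and ordered by mean within a role. Each point is 1 library of the NMN, aged or young group. Chek1 lies above every other gene, and Fancf, Ercc1 and Apex1 lie close to 0.

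Among the damage kinases and their effectors, the mRNAs of the upstream kinases were far less abundant than that of Chek1. Chek1, the kinase that restrains entry into division when DNA is damaged or incompletely replicated, had 153, 220 and 181 FPKM in NMN, 214, 139 and 195 FPKM in aged and 176, 239 and 242 FPKM in young libraries. The 3 groups overlapped. The mRNAs of the kinases ATR and ATM averaged under 1 FPKM. Atr, the kinase that activates CHK1, had 0.803, 0.865 and 0.916 FPKM in NMN, 0.723, 0.897 and 1.11 FPKM in aged and 0.716, 0.922 and 0.980 FPKM in young libraries. Atm, which responds first to double-strand breaks, had 0.644, 0.611 and 0.848 FPKM in NMN, 0.882, 1.38 and 0.668 FPKM in aged and 0.694, 1.001 and 1.89 FPKM in young libraries. Values of both kinases overlapped between all groups.

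Chek2, the kinase that signals to p53 and p63 in oocytes, had 0.456, 0.285 and 0.302 FPKM in NMN, 0.385, 1.47 and 0.840 FPKM in aged and 0.0996, 0.383 and 0.346 FPKM in young libraries. All 3 aged values were above all 3 young values, by a margin of 0.385 against 0.383 FPKM at the closest. Chek2 did not pass the filter on low values and was not tested. Trp63, the p63 gene, had 1.93, 1.67 and 1.77 FPKM in NMN, 1.16, 2.42 and 1.59 FPKM in aged and 0.955, 1.34 and 1.41 FPKM in young libraries. The NMN values lay above the young values, and the highest of the 9 values was that of aged replicate 2, which was also the highest library for Chek2. Trp53, which encodes p53, was far more abundant, with 30.4, 35.0 and 37.7 FPKM in NMN, 37.0, 24.5 and 32.6 FPKM in aged and 31.8, 36.2 and 35.3 FPKM in young libraries. Prkdc, the catalytic subunit of the DNA-dependent protein kinase, averaged 0.509 FPKM and was not tested.

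Rad50, the structural subunit of the complex that binds broken ends, was the most abundant of the 7 break sensing and chromatin signalling genes. It had 72.0, 47.8 and 53.1 FPKM in NMN, 54.8, 69.3 and 59.0 FPKM in aged and 61.4, 54.6 and 60.8 FPKM in young libraries. The mRNAs of its partners in the complex were lower. Nbn ranged from 11.8 to 15.8 FPKM over the 9 libraries, and the nuclease gene Mre11a had 3.26, 3.52 and 3.91 FPKM in NMN, 4.03, 1.90 and 3.69 FPKM in aged and 5.21, 4.22 and 3.70 FPKM in young libraries. For each of these 3 subunits the ranges of the groups overlapped. Rnf168, a ubiquitin ligase that marks chromatin at breaks, had 36.4, 32.1 and 32.8 FPKM in NMN, 27.5, 35.1 and 28.4 FPKM in aged and 38.8, 33.8 and 35.5 FPKM in young libraries. Aged replicates 1 and 3 were the lowest of the 9 libraries for Rnf168, and aged replicate 2 lay within the range of the others.

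Brca2, which loads the recombinase onto single-stranded DNA, was the steadiest of the 43 tested genes, with a coefficient of variation of 7.02% over the 9 libraries. It had 37.0, 38.3 and 35.2 FPKM in NMN, 35.1, 36.7 and 37.1 FPKM in aged and 36.2, 36.8 and 43.8 FPKM in young libraries. Brca1, its partner in homologous recombination, had 13.8, 19.4 and 21.3 FPKM in NMN, 22.7, 13.4 and 17.8 FPKM in aged and 11.2, 21.1 and 20.1 FPKM in young libraries. Each group held 1 low Brca1 library, namely NMN replicate 1, aged replicate 2 and young replicate 1. Palb2, which bridges BRCA1 and BRCA2, ranged from 10.8 to 23.3 FPKM, with its lowest values in aged replicate 2 and NMN replicate 1. The paralogs Rad51b, Rad51c, Rad51d, Xrcc2 and Xrcc3, which help to build the recombinase filament, averaged 2.31 to 5.98 FPKM.

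Among the Fanconi anaemia genes, which act on DNA interstrand crosslinks, Brip1 was the most abundant. Brip1, a helicase that binds BRCA1, had 17.5, 28.7 and 28.5 FPKM in NMN, 35.8, 19.6 and 33.6 FPKM in aged and 16.2, 29.98 and 29.0 FPKM in young libraries. It was lowest in the same 3 libraries as Brca1. Fancf, an adaptor of the core complex, was listed at 0 in 8 libraries and at 0.246 FPKM in young replicate 3. Msh6, which recognises base mismatches, had 42.1, 40.7 and 41.2 FPKM in NMN, 40.2, 49.3 and 51.6 FPKM in aged and 48.1, 44.1 and 43.2 FPKM in young libraries. Msh3, its alternative partner, averaged 8.63 FPKM, and Pms2 averaged 1.29 FPKM.

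Nucleotide excision repair was represented by low values. Xpc, a damage sensor, averaged 3.42 FPKM, while Xpa, Ercc4 and Ercc1, the scaffold and the nuclease subunits that cut out the lesion, averaged 0.459, 0.420 and 0.0958 FPKM. Of these 4 genes only Xpc was tested. Apex1, the main endonuclease of abasic sites in base excision repair, averaged 0.127 FPKM and was listed at 0 in NMN replicate 3. Of the exon bases of Apex1, 61.7% also lie in exons of Pip4p1 on the opposite strand, and of Lig3 25.1% lie in exons of Rffl. The sources used here state no stranded counting, so reads of such overlapping genes cannot be told apart.

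Promoters of 45 of the 53 genes were matched by symbol and taken from RefSeq on GRCm38.p6 as 250 bases before to 50 bases after the transcription start. The motifs TTTCCCGC and TTTGGCGC, forms of the binding site of E2F factors, were searched on both strands. A match was present in 9 of the 45 genes (20%), and in 8 of the 36 tested genes with a promoter (22.2%), against 3.65% of all 6635 tested genes with one. A match is a description of the letters and not evidence of binding. The promoters of Brca2, Msh6 and Mdc1 are shown because they hold a match and belong to an abundant recombination gene, an abundant mismatch repair gene and a break signalling gene whose values are compared between groups further on. Capitals mark the motif, which in Brca2 lies on the opposite strand and so reads GCGGGAAA, and each sequence runs 5′ to 3′ on the strand of the gene.
Brca2 promoter, GRCm38.p6 chr5:150522371-150522670, plus strand: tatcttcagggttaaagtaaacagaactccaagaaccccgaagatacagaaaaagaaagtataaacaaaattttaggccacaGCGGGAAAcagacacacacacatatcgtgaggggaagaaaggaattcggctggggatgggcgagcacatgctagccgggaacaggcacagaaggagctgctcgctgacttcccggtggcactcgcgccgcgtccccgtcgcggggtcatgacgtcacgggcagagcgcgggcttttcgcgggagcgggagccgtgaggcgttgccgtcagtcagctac
Msh6 promoter, GRCm38.p6 chr17:87974800-87975099, plus strand: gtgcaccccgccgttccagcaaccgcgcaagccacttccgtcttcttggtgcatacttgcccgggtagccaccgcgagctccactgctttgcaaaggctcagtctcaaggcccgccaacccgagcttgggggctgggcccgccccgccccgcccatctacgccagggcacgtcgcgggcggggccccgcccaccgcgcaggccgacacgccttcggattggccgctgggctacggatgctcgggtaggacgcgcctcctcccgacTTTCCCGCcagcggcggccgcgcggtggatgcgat
Mdc1 promoter, GRCm38.p6 chr17:35841248-35841547, plus strand: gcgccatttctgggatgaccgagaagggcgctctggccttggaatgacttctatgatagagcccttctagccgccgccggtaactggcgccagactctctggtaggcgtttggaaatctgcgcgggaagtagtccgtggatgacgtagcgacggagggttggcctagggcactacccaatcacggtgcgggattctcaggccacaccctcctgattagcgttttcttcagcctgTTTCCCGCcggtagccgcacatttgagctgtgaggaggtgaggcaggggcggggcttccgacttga
Relative to the annotated start, the motif lies at -168 in Brca2, at -16 in Mdc1 and at 15 in Msh6. The median number of CpG dinucleotides in the promoter was 22 both for the tested repair genes and for all tested genes.

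In maturing oocytes, stored mRNAs that carry a cytoplasmic polyadenylation element near their 3′ end can gain poly(A), and these libraries were primed from poly(A). The element, TTTTAT or TTTTAAT, was searched in the last 100 bases of 1 annotated coding transcript per gene (GENCODE M21, GRCm38). It was found in 8 of the 43 tested repair genes (18.6%), close to the 21.4% of all 7960 tested genes with such a transcript. Together with a polyadenylation signal, AATAAA or ATTAAA, in these 100 bases it was found in 6 of the 43 (14%), against 18.2%. The sites of Brca2 and Trp53, among the most abundant members that hold it, and of Fancm, whose groups are compared next, are shown as 30 bases of the transcript with the element in capitals.
Brca2 3′ site, GRCm38 chr5:150569697-150569726, plus strand: ctacaactatcaTTTTATatacaaaataaa
Trp53 3′ site, GRCm38 chr11:69591814-69591843, plus strand: ttttttacccctTTTTATatatcaatttcc
Fancm 3′ site, GRCm38 chr12:65131980-65132009, plus strand: ctcaattctgaaTTTTATcagctggtgggc
The site of Brca2 is followed by the polyadenylation signal AATAAA within the same 30 bases, and in Trp53 and Fancm the element begins 47 and 67 bases before the annotated transcript end. The last 100 bases of the Fancm transcript hold neither AATAAA nor ATTAAA.

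Differences between the groups were tested with limma on log2(FPKM + 1) across the 9174 genes that had at least 1 FPKM in at least 3 libraries, with Benjamini-Hochberg adjustment over all of them. Of the 53 repair genes 43 passed this filter and 10 did not. The 10 were Atr, Chek2, Prkdc, Rad52, Fancf, Apex1, Lig3, Ercc1, Ercc4 and Xpa. Differences are in log2(FPKM + 1), a scale that understates the change of low genes, and they are aged minus young, NMN minus aged and NMN minus young. The comparisons of aged with young and of NMN with aged share the 3 aged libraries, so a high or low value of an aged library enters both.

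In aged against young oocytes, 0 of the 43 repair genes passed the limma test at an adjusted p under 0.05, while 2.18% of all tested genes did. At an unadjusted p under 0.05 there were 4 repair genes (9.3%), against 18.3% of all tested genes. The 4 were Ung, Xrcc2, Fancm and Rnf8, all lower in aged oocytes, against 9.27% of all tested genes that were lower at this p. The 3 aged libraries lay below the 3 young libraries for 7 of the 43 genes, against 11.2% of all tested genes, and above them for 1, Rad51c, against 12.6%. The median difference of the 43 was -0.15, against -0.05 over all tested genes, with 31 genes (72.1%) below 0 and 12 above it, where 55.2% of all tested genes were below 0. The 95% interval of the difference lay between -1 and 1 for 37 of the 43, so that a change of more than 2-fold on this scale lies outside it. The 6 others were Trp53bp1, Palb2, Xrcc2, Xrcc3, Fanci and Ung.

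**Figure D2:**
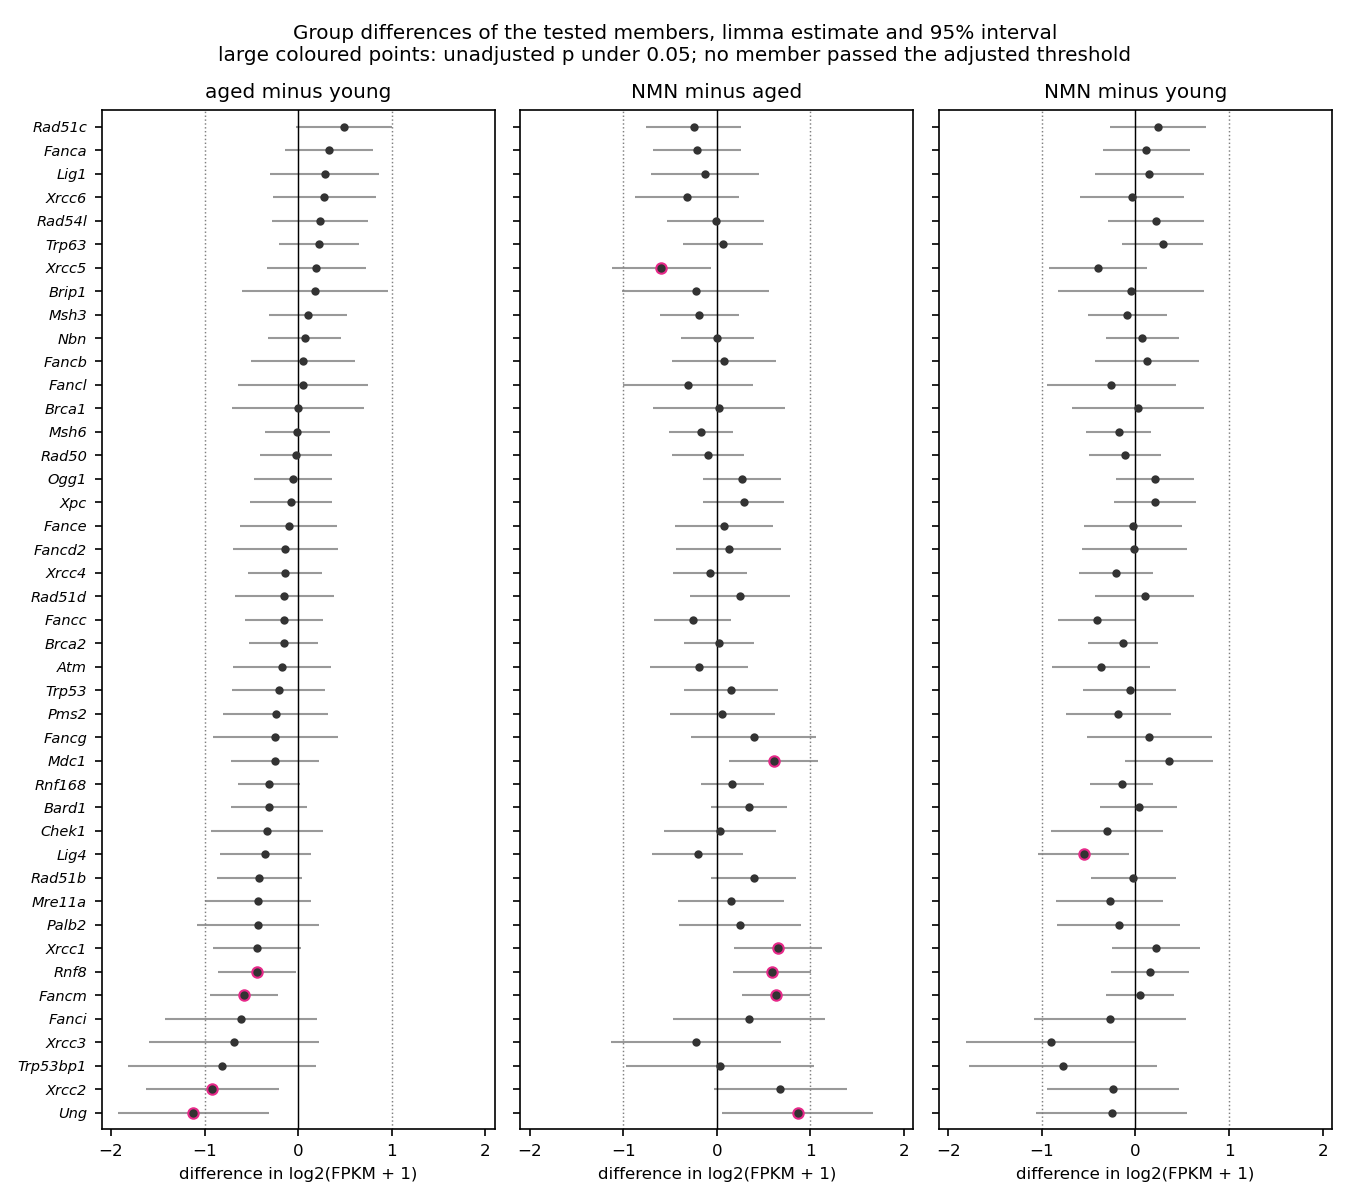
Difference in log2(FPKM + 1) for the 43 tested repair genes, as limma estimates with 95% intervals, for aged minus young, NMN minus aged and NMN minus young, ordered by the first. Dotted lines mark -1 and 1, and large coloured points have an unadjusted p under 0.05. The lowest estimate is that of Ung in aged minus young, at -1.12, and no gene passed the adjusted threshold.

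Ung, the glycosylase that removes uracil from DNA, had 24.8, 35.3 and 27.9 FPKM in NMN, 21.8, 8.17 and 20.5 FPKM in aged and 32.8, 30.3 and 37.6 FPKM in young libraries. The aged values lay below all other 6 values. The difference was -1.12 ± 0.36 (SE, n = 3 per group) in aged against young, with a limma adjusted p of 0.149. Aged replicate 2 was the lowest library for Ung, and without it the difference was -0.63, with an adjusted p of 0.161. In NMN against aged the difference was 0.87 ± 0.36, with an adjusted p of 0.414, and 0.38 without aged replicate 2.

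Fancm, a helicase that moves stalled replication forks and recruits the Fanconi core complex, had a narrow range within each group. It had 10.9, 10.9 and 10.1 FPKM in NMN, 6.42, 6.55 and 6.63 FPKM in aged and 10.04, 9.28 and 10.2 FPKM in young libraries. The aged libraries lay below the rest with a gap of 6.63 to 9.28 FPKM, and NMN and young libraries overlapped. The difference was -0.58 ± 0.16 in aged against young and 0.63 ± 0.16 in NMN against aged (SE, n = 3 per group). The limma adjusted p was 0.105 and 0.179, each the smallest among the 43 in its comparison, so that neither passed. Leaving out any 1 of the 9 libraries kept the difference between -0.62 and -0.52 in aged against young, with an adjusted p of 0.124 to 0.328.

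**Figure D3:**
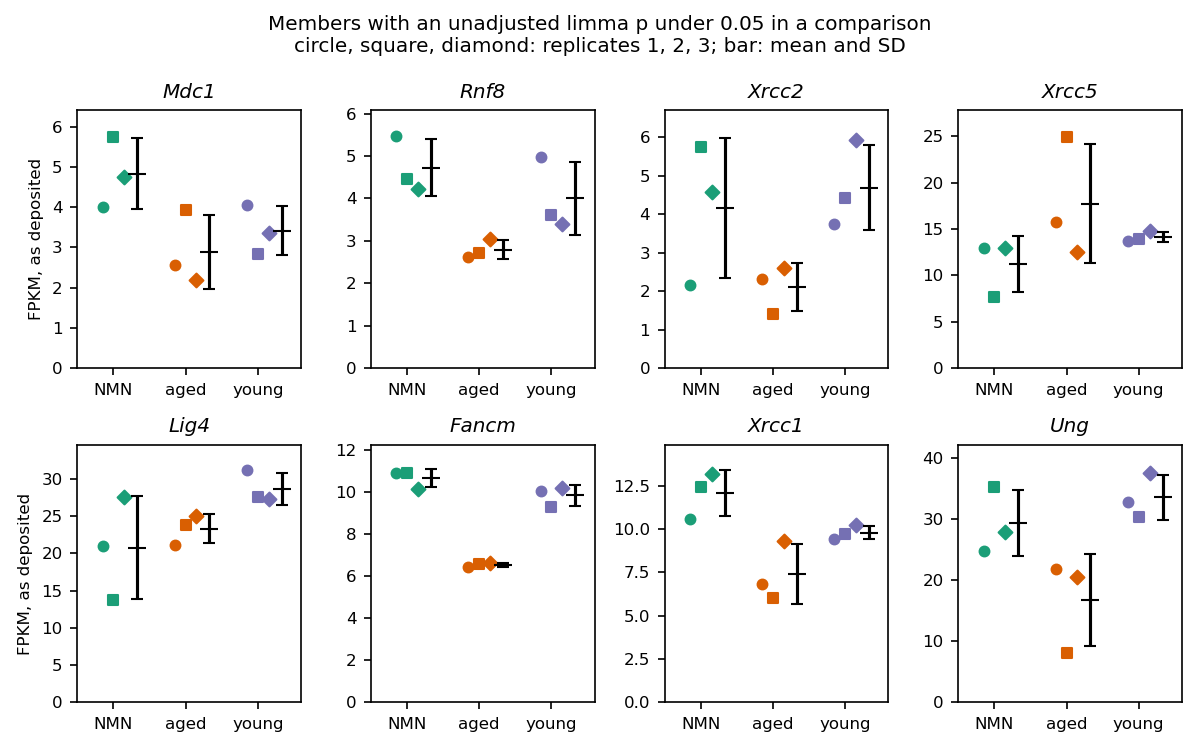
FPKM as deposited of the 8 repair genes with an unadjusted limma p under 0.05 in at least 1 comparison, by group. Symbols are replicates 1 to 3, and the bar gives the mean and SD of the 3 libraries. Fancm lies at 6.42 to 6.63 FPKM in aged libraries and at 9.28 FPKM or more in the other 6, and none of the 8 genes passed the adjusted threshold.

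Xrcc2, a paralog of the recombinase, had 2.17, 5.73 and 4.57 FPKM in NMN, 2.32, 1.41 and 2.59 FPKM in aged and 3.75, 4.41 and 5.92 FPKM in young libraries. Aged and young libraries did not overlap, and NMN replicate 1 lay among the aged values. The difference in aged against young was -0.92 ± 0.32 (SE, n = 3 per group, limma adjusted p = 0.169), and -0.70 without aged replicate 2. Rnf8, a ubiquitin ligase that acts before RNF168 at breaks, had 5.48, 4.46 and 4.22 FPKM in NMN, 2.62, 2.71 and 3.04 FPKM in aged and 4.99, 3.62 and 3.40 FPKM in young libraries. The aged libraries were the lowest 3 of the 9. The difference was -0.44 ± 0.19 in aged against young (limma adjusted p = 0.248, unadjusted p = 0.0409) and 0.59 ± 0.19 in NMN against aged (adjusted p = 0.282). Without aged replicate 2 the difference in aged against young was -0.37, with an unadjusted p of 0.0954.

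With library quality weights, which let limma give less weight to libraries that deviate more, 4 repair genes passed in aged against young oocytes, all lower in aged. They were Fancm (adjusted p = 0.0318), Rad51b (0.0387), Ung (0.0436) and Xrcc2 (0.0488). That is 9.3% of the repair genes. In the same fit 9.85% of all tested genes were called, 904 genes against 200 with equal weights, and 4.46% were called lower, so the share of repair genes called in either direction was close to that of all tested genes. Rad51b had 7.72, 5.91 and 6.13 FPKM in NMN, 3.78, 7.19 and 3.91 FPKM in aged and 6.62, 6.69 and 5.89 FPKM in young libraries. Its aged replicates 1 and 3 were the lowest of the 9 libraries and aged replicate 2 the second highest, and with equal weights its difference in aged against young had an unadjusted p of 0.0698 and an adjusted p of 0.310.

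The checkpoint and recombination genes that are best known in oocyte quality control did not pass in aged against young oocytes. The 95% interval was -0.93 to 0.26 for Chek1, -0.71 to 0.29 for Trp53 and -0.21 to 0.65 for Trp63. For Atm it was -0.69 to 0.35. Brca1 had an interval of -0.71 to 0.70 and Brca2 one of -0.53 to 0.22, and for Mre11a it was -0.996 to 0.14. The adjusted p of these 7 genes was between 0.408 and 0.998. All 7 intervals include 0, and none reaches beyond -1 or 1. Leaving out aged replicate 2 moved several of the differences. That of Chek1 was then -0.077, against -0.33 with all libraries, and that of Mre11a was -0.13, against -0.43. For Trp63 it was 0.089, against 0.22, and for Brca2 -0.093, against -0.16. Trp53 and Brca1 changed sign, to 0.023 and 0.25, against -0.21 and -0.00 with all libraries, and Atm no longer passed the filter on low values. For Atm, Trp63 and Mre11a, whose values are low, the scale understates the change.

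In NMN against aged oocytes, 0 of the 43 repair genes passed the limma test, while 0.218% of all tested genes did. At an unadjusted p under 0.05 there were 6 repair genes (14%), against 11.3% of all tested genes. Of these, Fancm, Rnf8, Xrcc1, Mdc1 and Ung were higher in NMN oocytes (6.15% of all tested genes were) and Xrcc5 was lower (5.19% of all tested genes were). The NMN libraries lay above the aged libraries for 6 of the 43 genes, against 9.16% of all tested genes, and below them for 2, Xrcc6 and Msh3, against 6.52%. The median difference of the 43 was 0.06, against 0.02 over all tested genes. The 95% interval lay between -1 and 1 for 32 of the 43.

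Xrcc1, the scaffold of single-strand break repair, had 10.6, 12.4 and 13.2 FPKM in NMN, 6.85, 6.01 and 9.33 FPKM in aged and 9.45, 9.70 and 10.2 FPKM in young libraries. The NMN values were the highest 3 and the aged values the lowest 3 of the 9, so that the groups did not overlap. The difference in NMN against aged was 0.66 ± 0.21 (SE, n = 3 per group, limma adjusted p = 0.295), and 0.47 without aged replicate 2. Mdc1, the adaptor that spreads the break signal along chromatin, had 3.998, 5.75 and 4.76 FPKM in NMN, 2.57, 3.93 and 2.18 FPKM in aged and 4.05, 2.83 and 3.36 FPKM in young libraries. The closest values of Mdc1 were 3.998 FPKM in NMN replicate 1 and 3.93 FPKM in aged replicate 2. Its difference in NMN against aged was 0.61 ± 0.21 (limma adjusted p = 0.336), and 0.73 without aged replicate 2.

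Xrcc5, which encodes the Ku80 subunit that binds broken ends for end joining, had 13.0, 7.71 and 12.9 FPKM in NMN, 15.7, 24.9 and 12.5 FPKM in aged and 13.7, 14.0 and 14.7 FPKM in young libraries. NMN and aged libraries overlapped. The difference was -0.59 ± 0.24 (SE, n = 3 per group, limma adjusted p = 0.397), and -0.40 without aged replicate 2, the highest library for this gene. Xrcc6, which encodes the other Ku subunit, lay lower in NMN libraries, at 3.22 to 3.90 FPKM, than in aged libraries, at 4.58 to 5.22 FPKM. Its limma adjusted p was 0.670. The 4 tested end joining genes among the repair genes described here were Xrcc4, Xrcc5, Xrcc6 and Lig4. Each had a negative difference in NMN against aged and in NMN against young, with medians of -0.26 and -0.30. None passed the test. Over all tested genes, 46.8% and 50.2% were below 0 in these comparisons, which share the NMN libraries. The difference of Xrcc6 in NMN against young was only -0.037. Other tested end joining genes, from the list of further pathway genes given below, did not all have negative differences. In NMN against aged, Dclre1c, Poll and Polm had differences of 0.27, 0.39 and 0.079, and Nhej1 had -0.91. In NMN against young, Poll had 0.050, while Dclre1c, Polm and Nhej1 had -0.0073, -0.23 and -0.63.

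The summed values of the 6 base excision and single-strand break genes kept the aged group apart from both others. The sum was 48.9, 56.4 and 49.3 FPKM in NMN, 36.1, 26.7 and 38.7 FPKM in aged and 50.7, 49.1 and 56.1 FPKM in young libraries. Ung and Xrcc1 make up most of it, and no test was made of the sum. The sums of the mismatch repair genes were 50.4 to 51.0 FPKM in NMN, 50.4 to 63.7 FPKM in aged and 53.9 to 56.7 FPKM in young libraries. Over all 53 genes, the sum was 623, 705 and 676.5 FPKM in NMN, 674, 589 and 691.5 FPKM in aged and 661, 751 and 786 FPKM in young libraries, and the groups overlapped. FPKM are relative to the fragments of a library, so these sums do not measure the amount of mRNA per oocyte.

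In NMN against young oocytes, 0 of the 43 repair genes passed the limma test, and 0.0763% of all tested genes did. With the replicate number as a block in the fit of all 9 libraries, 0 repair genes passed. The count over all tested genes was then 0, against 7 without the block. Same-numbered NMN and young libraries met the correlation rule for pairing, but no paired test of them alone was made. The block was estimated from the aged libraries too, so the block fit is not such a test. The other p-values of NMN against young given here come from the fit of all 9 libraries without pairing. At an unadjusted p under 0.05 there was 1 repair gene (2.33%), against 8.12% of all tested genes. It was lower in NMN oocytes, as were 4.28% of all tested genes at this p. That gene was Lig4, the ligase that seals breaks in end joining. It had 21.0, 13.7 and 27.5 FPKM in NMN, 21.1, 23.8 and 25.02 FPKM in aged and 31.1, 27.6 and 27.3 FPKM in young libraries. NMN replicates 1 and 2 lay below all young values, and NMN replicate 3 reached them. The difference was -0.55 ± 0.22 (SE, n = 3 per group, limma adjusted p = 0.547), and it ranged from -0.76 to -0.33 when 1 of the 9 libraries was left out. The NMN libraries lay above the young libraries for 3 of the 43 genes, Trp63, Rad54l and Xrcc1, against 9.56% of all tested genes, and below them for 4, Xrcc3, Xrcc5, Fancc and Msh6, against 7.02%. The 95% interval lay between -1 and 1 for 38 of the 43. The median of the 43 differences was -0.05, against -0.00 over all tested genes.

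Other genes of the same pathways were taken from a fixed list of 97, of which 96 were in the table and 73 passed the filter. In aged against young oocytes 1 of the 73 passed (1.37%, against 2.18% of all tested genes, and 1.26% that were higher), and in NMN against aged and NMN against young 0 passed. At an unadjusted p under 0.05 there were 10 of the 73 in aged against young (13.7%, against 18.3% of all tested genes), 7 in NMN against aged (9.59%, against 11.3%) and 3 in NMN against young (4.11%, against 8.12%). The gene that rose was Ube2t, the ubiquitin-conjugating enzyme that works with FANCL on FANCD2 and FANCI. Ube2t had 47.6, 17.0 and 25.2 FPKM in NMN, 42.1, 68.8 and 44.9 FPKM in aged and 17.0, 17.5 and 8.65 FPKM in young libraries. Aged and young libraries did not overlap, and NMN libraries reached into both. The difference in aged against young was 1.75 ± 0.35 (SE, n = 3 per group, limma adjusted p = 0.0375). It was called in 2 of the 9 fits that left out 1 library, with an adjusted p of 0.0212 to 0.142, and with an adjusted p of 0.0619 without aged replicate 2. Its partners among the 53 did not pass, with adjusted p of 0.949 for Fancl, 0.814 for Fancd2 and 0.409 for Fanci.

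**Figure D4:**
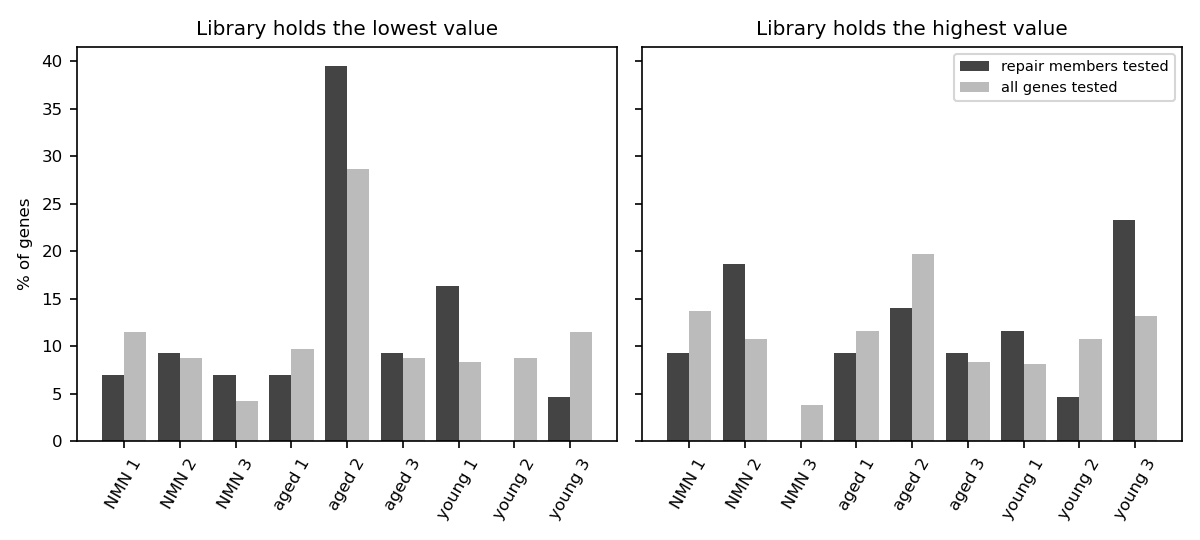
Share of the 43 tested repair genes and of all 9174 tested genes for which each library holds the lowest or the highest of the 9 scaled values. Aged replicate 2 holds the lowest value for 39.5% of the repair genes and for 28.6% of all tested genes.

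Single libraries marked the extremes of many repair genes, as the plot of lowest and highest libraries shows. After scaling, aged replicate 2 held the lowest of the 9 values for 17 of the 43 genes (39.5%), among them Chek1, Trp53, Trp53bp1, Palb2, Ung and Xrcc1, against 28.6% of all tested genes. It held the highest value for 6 (14%), Trp63, Rad51c, Xrcc5, Fanca, Fancl and Lig1, against 19.7% of all tested genes. Scaling divided this library by 1.12, the largest of the 9 factors. Brca2, counted among the 17, had 36.7 FPKM there as deposited, within the range of the other libraries. Trp53bp1, a factor that steers breaks toward end joining, had 11.0, 14.9 and 20.4 FPKM in NMN, 17.8, 6.59 and 25.5 FPKM in aged and 19.5, 26.0 and 31.9 FPKM in young libraries, a spread that was 4.84-fold from lowest to highest. Without aged replicate 2, 42 repair genes were tested and 0 passed in each of the 3 comparisons. At an unadjusted p under 0.05 there were then 5 repair genes in aged against young (11.9%, against 16.8% of all tested genes), 5 in NMN against aged (11.9%, against 15.1%) and 4 in NMN against young (9.52%, against 12.7%). In aged against young these were Fancm, Ung, Rad51b and Rnf168, lower in aged oocytes, and Rad54l, higher at 0.45. In NMN against aged they were Mdc1, Rnf8, Rad51b, Fancm and Xrcc1, all higher in NMN oocytes, and in NMN against young they were Trp53bp1, Xrcc3, Lig4 and Fancc, all lower in NMN oocytes.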

How the data were processed

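Per the labels' protocols, RNA of oocytes was reverse transcribed from oligo(dT) by Smart-seq2, amplified and sequenced after DNBseq library preparation. The authors deposited 1 table whose name speaks of raw counts, but the deposited values are FPKM: they are fractional, and multiplied by transcript length they came out as whole reads (within 0.02) for 96.1 to 97.7% of the values below 20 reads. This used 2659 genes with a single annotated transcript over 1500 nt. The size of 1 read gave the depth, and it covers counting error only. The submitters' processing notes name Bowtie2 2.2.5, RSEM and build mm9. The role of each tool and the annotation are not given in the sources used here. Symbols came from GENCODE M21 (99.83% of identifiers matched). As the values were FPKM, limma 3.58.1 under R 4.3.3 was run, as planned for that unit, with a variance trend and robust moderation.

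FPKM were divided by trimmed-mean factors (30% by ratio, 5% by level), 1 was added and log2 taken, and all 9 libraries entered 1 fit of group means. Values per library are printed as deposited. The steps were tested on simulated data with known changes. A log2 change of 1 was recovered for 37% of the changed genes in aged against young, 55% in NMN against aged and 47% in NMN against young. For a log2 change of 2 the shares were 89, 93 and 91%. Of the calls, 5.97, 3.9 and 4.17% were false. The noise was independent between libraries and used the same spread of each gene in every comparison. The shares of the 3 comparisons therefore differ by the random draw and do not rank them. No simulated library stood apart as aged replicate 2 does, so the shares may not hold for the real libraries. Groups share replicate numbers. The rule for pairing same-numbered libraries was that each of the 3 correlations between their deviations from group means exceeded 0.1. Only NMN and young met it. The main fit held no pairing for them, and the replicate block over all 9 libraries was the only fit that used replicate numbers. The correlations were 0.497, 0.119 and 0.142 for NMN and young, -0.339, -0.266 and 0.313 for aged and young and -0.37, -0.36 and 0.198 for NMN and aged.

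Values in every library are given for genes with an unadjusted p under 0.05 in any comparison, the 8 most abundant and 9 known from oocyte quality control. Trp53bp1 and Rad51b were added after their values were seen. The members, lists and rules were chosen with earlier results of these data known. Alternatives were another pseudocount, filters, scalings, library weights, the replicate number as a block, the 6 libraries of a comparison and leaving out each library.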

Additional observations from a re-analysis of the deposited data

How the results depend on the processing

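No repair gene was called in any of the 3 comparisons under any alternative but library quality weights, which called 4 in aged against young. Leaving out 1 library called 0 to 0 of them. Called genes overall were 200 in aged against young, 20 in NMN against aged and 7 in NMN against young, the order used here. They were 31, 9 and 0 with no filter on low values, 97, 3 and 1 at a minimum of 10 FPKM, and 904, 163 and 72 with library quality weights. The 6 libraries of a comparison alone gave 132, 6 and 17. With the replicate number as a block they were 73, 15 and 0, and this block changed no repair gene call, 0 in each comparison. Values as deposited gave 3 in NMN against young. Leaving out 1 library gave 20 (without young replicate 2) to 210, 5 to 26 and 1 to 14. With no filter on low values, Ube2t had an adjusted p of 0.135 in aged against young, and 0.0688 with the block.

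Of 991 differences of the genes named, recomputed under alternatives, 44 changed sign, all of them of differences of at most 0.24. In aged against young, values as deposited gave 0.045 for Rad50, 0.058 for Brca1 and 0.052 for Msh6, and median-ratio factors gave 0.015 for Brca1 and 0.00640 for Msh6. Library quality weights gave -0.0396 for Xrcc5 and 0.070 for Msh6. In NMN against aged, those weights gave -0.15 for Chek1, -0.027 for Mre11a, -0.016 for Brca1 and -0.062 for Brca2, and in NMN against young they gave -0.032 for Brca1. Values as deposited gave 0.0076 for Brip1 in NMN against young. Leaving out 1 library gave -0.39 to 0.023 for Trp53, -0.061 to 0.015 for Rad50, -0.30 to 0.25 for Brca1, -0.12 to 0.51 for Brip1 and -0.10 to 0.043 for Msh6 in aged against young. In NMN against aged it gave -0.22 to 0.21 for Chek1, -0.084 to 0.33 for Trp53, -0.0500 to 0.20 for Trp63, -0.14 to 0.34 for Mre11a, -0.23 to 0.26 for Brca1, -0.037 to 0.071 for Brca2, -0.41 to 0.019 for Lig4 and -0.56 to 0.021 for Brip1. In NMN against young it gave -0.14 to 0.044 for Trp53, -0.27 to 0.22 for Brca1, -0.49 to 0.095 for Xrcc2 and -0.35 to 0.20 for Brip1. The cause was not tested.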

Other observations

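NMN replicate 1, aged replicate 2 and young replicate 1 held the 3 lowest of the 9 scaled values for 7 of the 43 tested repair genes (16.3%), against 9.13% of all 9174 tested genes. The 7 were Chek1, Trp53, Nbn, Brca1, Palb2, Brip1 and Msh3. For Nbn, Msh3 and Palb2 the pattern depends on the scaling. As deposited, aged replicate 2 had 13.97 FPKM for Nbn and 8.86 FPKM for Msh3, within the range of the other libraries. For Palb2, aged replicate 1 had 16.1 FPKM as deposited, below the 16.5 FPKM of young replicate 1. The same 3 libraries held the 3 highest values for 0 of the 43 and for 6.42% of all tested genes. This set of libraries was noticed in the values and holds 1 library of each group. The comparison of the shares was not tested.

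In aged against young oocytes, 10 of the 73 further pathway genes tested (13.7%) had an unadjusted limma p under 0.05, against 18.3% of all tested genes. Of the 10, 5 were higher and 5 lower in aged oocytes (6.85% each), against 9.07% and 9.27% of all tested genes. After Ube2t, the 4 with the smallest p were Tipin, Rad1, Eme1 and H2afx, of which none passed the adjusted threshold. Tipin and Rad1, which act in the replication checkpoint, averaged 29.9 ± 6.23 and 7.24 ± 1.53 FPKM in aged libraries, against 15.9 ± 3.17 and 3.51 ± 0.61 FPKM in young libraries (SD, n = 3). The limma adjusted p was 0.0759 and 0.0820. Eme1, a subunit of a nuclease that cuts branched DNA, averaged 3.51 ± 1.49 FPKM in aged libraries, against 8.17 ± 2.34 FPKM in young libraries, with an adjusted p of 0.0931. H2afx, the histone variant that is phosphorylated at breaks, averaged 37.3 ± 15.0 FPKM in NMN and 33.8 ± 11.5 FPKM in aged libraries, against 14.2 ± 2.77 FPKM in young libraries, with an adjusted p of 0.364 (NMN against young) and 0.153 (aged against young). These 4 genes were chosen after their values were seen.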
